A study of Mus musculus with 8 samples.

Results

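Chemokine ligand genes measured in Treg cells of mice with reversible Brg1 deletion are described here, namely Ccl1, Ccl3, Ccl4, Ccl5, Xcl1, Cxcl9 and Cxcl10. These are 7 of the 53465 genes with a deposited value in each library, and 27 other chemokine ligand genes were set beside them. They were chosen by their levels in these same libraries, with earlier results in view, for how they differed between cells with and without Brg1, so their values in those comparisons are a description and carry no test. The question was which ligands went with Brg1 both in mosaic females and in rKO1 mice, and which went opposite ways in the 2 settings.

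Chemokines are small secreted proteins that draw leukocytes along a gradient by binding receptors of the G protein-coupled class. CCL3, CCL4 and CCL5 are inflammatory chemokines of the CC class, of which CCL3 and CCL5 bind CCR1 and CCL5 binds CCR3 as well. CCL1 binds CCR8, a receptor abundant on activated Treg cells, XCL1 binds XCR1 on cross-presenting dendritic cells, and CXCL9 and CXCL10 bind CXCR3, the receptor of type 1 T cells. CCL3, CCL4, CCL5 and XCL1 are known as products of activated T and NK cells, while CXCL9 and CXCL10 are interferon-induced and are made in quantity by macrophages and other cells.

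The study deleted Brg1, the ATPase of the chromatin-remodeling BAF complex, in cells expressing Cre from the Foxp3 locus (Foxp3YFP-Cre), so that deletion followed Foxp3 expression. Of the Brg1 alleles, F is floxed and ΔR is a gene trap that marks its cells with GFP, and the ubiquitous R26CAG-FlpoER transgene, carried by all 8 groups, removes the trap after tamoxifen (TAM). The mice of all 8 libraries were labelled C57BL/6, aged 3 to 4 weeks. By the study's methods, however, the ΔR allele was made on a background mixed with 129 Sv and crossed to C57BL/6 for fewer generations than the other alleles, and the WT mice lack it. Non-CD4 cells were first removed with magnets, and Treg cells were then sorted as CD4+ CD25+ YFP+ from spleen and lymph nodes, 0.1 M cells per sample. The total Treg experiment had 6 libraries, 1 per condition.

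The WT library was labelled Brg1 F/+ with Foxp3YFP-Cre/+, so it carried 1 floxed allele. Mosaic females gave a Brg1-sufficient library, labelled Brg1 F/ΔR with Foxp3+/+, and a Brg1-deleted library, labelled Brg1 F/ΔR with Foxp3YFP-Cre. Untreated rKO1 mice, which develop severe inflammation, gave a Brg1-deleted library (F/ΔR, Foxp3YFP-Cre/YFP-Cre). On Day 7 after TAM, rKO1 mice gave a GFP+ Brg1-deleted library and a GFP- Brg1-reexpressed library, the latter labelled F/+. In a second experiment, run apart from the first, CD44hi CD62Llo aTreg cells (activated Treg cells) of TAM-treated rKO1 mice gave 1 library labelled Brg1-deleted and 1 labelled Brg1-reexpressed. The labels of the aTreg pair are in doubt: the first has the genotype F/F in its description and a column headed as WT. The gate required YFP, which the mosaic Brg1-sufficient cells lack, so that gate cannot have defined them. The mosaic pair thus differed in sorting gate as well as in Brg1, and these cannot be told apart.

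The authors deposited FPKM, in which reads are divided by exon length and by library total. Whole reads were recovered from it (93.4% of 26020 genes with reads in the total Treg experiment, 100% of 21242 in the aTreg experiment, all 7 ligands included), and levels are given as CPM, counts per 1 M reads on genes, scaled by TMM within each experiment. Libraries held 16.3 to 24.1 M reads on genes, so that 1 read was worth 0.0411 to 0.0602 CPM. With 1 library per condition there is no replicate, no p-value is possible, and each 95% interval is exact and covers counting error only. A ligand was called different at 2-fold or more with at least 5 CPM in either library. In bulk libraries, fewer cells of a type and less RNA per cell cannot be told apart.

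The libraries were checked against their labels. All 7 Treg cell markers had more than 3 reads in each library, summing to 2041 to 3453 CPM. Foxp3 ran from 62.1 to 614 CPM, highest in the mosaic Brg1-sufficient library. Smarca4, the gene of Brg1, had 77.0 CPM in the Brg1-sufficient and 47.1 CPM in the Brg1-deleted mosaic library, and 58.0 CPM in the reexpressed and 36.0 CPM in the deleted rKO1 library. In the aTreg pair it went against the labels, at 59.4 CPM in the library labelled reexpressed and 71.2 CPM in the one labelled deleted. Reads from exons outside the deleted part are counted too, so Smarca4 is a partial check. Y-linked genes had 0 reads in the WT and both mosaic libraries and 1356 to 4155 reads in the other 5, while Xist, expressed in female cells, had 876 to 3995 reads in the former, 10 in untreated rKO1 and 217 to 935 in the 4 TAM libraries. The untreated rKO1 library thus had the reads of male cells, against a label with the X-linked Cre on both alleles, and the TAM libraries had reads of both sexes. Mouse sex cannot be told apart from the rKO1 condition, nor from TAM treatment among the Brg1-deleted rKO1 libraries. The 2 aTreg libraries also differed in their mix of sexes. The one labelled deleted had 2838 Y-linked and 217 Xist reads, and the one labelled reexpressed had 1356 and 834.

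Among the ligand genes, 4 lie on chromosome 11 of GRCm38 (Ccl1 at chr11:82176657-82305690, Ccl5 at chr11:83525778-83530518, Ccl3 at chr11:83647844-83649355 and Ccl4 at chr11:83662584-83664683). Ccl3 and Ccl4 are 13.2 kb apart, and Ccl5 is 117 kb from Ccl3. Cxcl9 (chr5:92321347-92328079) and Cxcl10 (chr5:92346638-92348889) are neighbours on chromosome 5, 18.6 kb apart, and Xcl1 (chr1:164931644-164935527) is on chromosome 1. The annotated Ccl1 model holds 2369 exon bases, of which 74.1% belong only to a long transcript that reaches upstream of the short protein-coding ones, and reads could not be assigned to either. Of the Xcl1 exon bases 18.7% overlap Gm20743, and of those of Cxcl10 5.91% overlap Art3.

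The 250 bases before the start of 3 ligand genes follow, because Cxcl9 and Cxcl10 ordered the 6 total Treg libraries alike but for WT and reexpressed cells, and Ccl1 went furthest in opposite directions. They were read from RefSeq (GRCm38.p6), which held 5 of the 7 ligands and not Ccl4 and Ccl5, and are printed 5′ to 3′ on the minus strand, as all 3 genes run. Capitals mark matches to 4 motifs searched on both strands: NF-kappaB (GGG, any 5 bases, CC), the interferon-stimulated response element (GAAA, any 2 bases, GAAA), the gamma-activated site (TTCNNNGAA) and AP-1 (TGANTCA). The stretches are chr5:92348890-92349139 for Cxcl10, chr5:92328080-92328329 for Cxcl9 and, before the short transcripts, chr11:82179813-82180062 for Ccl1.
Cxcl10: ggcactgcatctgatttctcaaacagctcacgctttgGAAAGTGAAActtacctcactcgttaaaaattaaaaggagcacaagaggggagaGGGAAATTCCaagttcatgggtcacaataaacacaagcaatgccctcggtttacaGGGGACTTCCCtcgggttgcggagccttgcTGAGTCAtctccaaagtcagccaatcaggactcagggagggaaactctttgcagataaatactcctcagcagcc
Cxcl9: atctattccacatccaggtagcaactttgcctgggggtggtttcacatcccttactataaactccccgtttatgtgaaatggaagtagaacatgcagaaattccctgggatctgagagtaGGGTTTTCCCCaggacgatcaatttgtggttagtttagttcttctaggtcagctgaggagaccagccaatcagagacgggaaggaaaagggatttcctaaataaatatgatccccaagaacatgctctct
Ccl1: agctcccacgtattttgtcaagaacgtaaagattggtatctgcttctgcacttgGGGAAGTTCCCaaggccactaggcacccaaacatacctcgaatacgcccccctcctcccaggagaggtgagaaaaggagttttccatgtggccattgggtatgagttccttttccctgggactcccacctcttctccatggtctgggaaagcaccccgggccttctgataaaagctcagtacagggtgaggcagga

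The Cxcl10 stretch held 1 interferon-stimulated response element starting 213 bases before the gene, 1 AP-1 match at 74 bases, and NF-kappaB matches at 159, 104 and 103 bases, the last 2 overlapping. The Cxcl9 stretch held only overlapping NF-kappaB matches, at 130 and 129 bases, and so did that of Ccl1, at 196 and 195 bases. The stretches of Ccl3 and Xcl1 held none of the 4 motifs. Among all 32851 promoter stretches of that length, 45.8% held an NF-kappaB match, 2.98% the interferon element, 7.02% the gamma-activated site and 6.75% AP-1. A match describes letters in the window and is not evidence of binding.

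**Figure D1:**
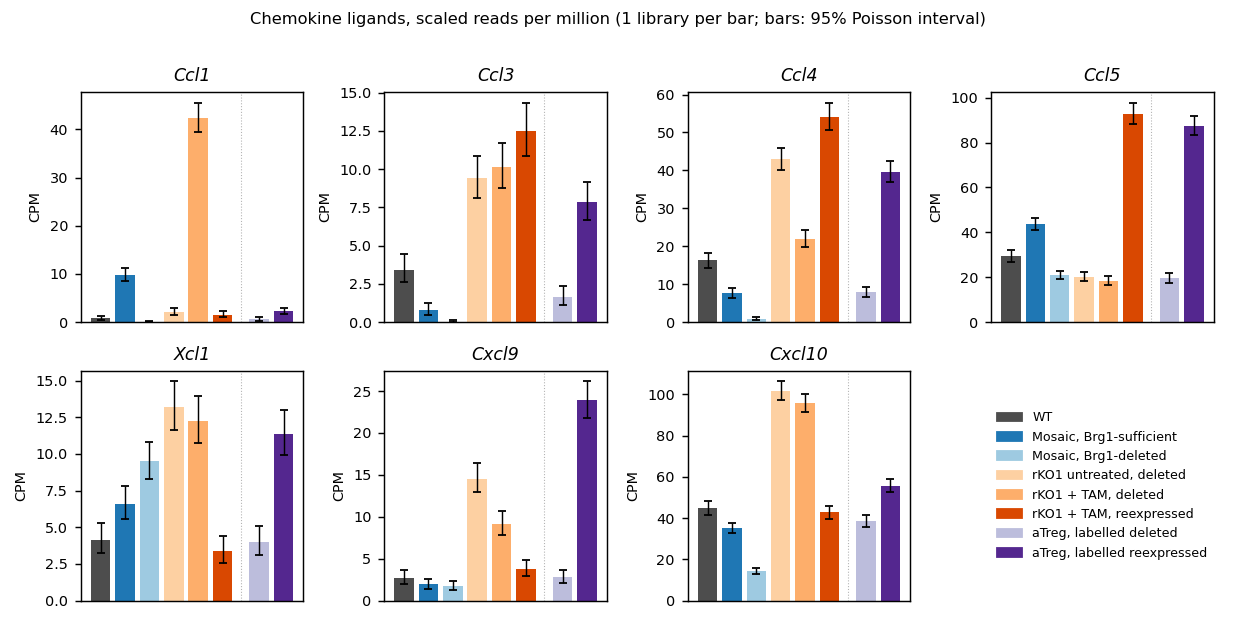
Scaled CPM (y axis, starting at 0) of each ligand in the 8 libraries, 1 bar per library, with the 6 total Treg libraries left of the dotted line and the 2 aTreg libraries right of it. Error bars are 95% Poisson intervals of the reads. Ccl1 stands out in the TAM-treated deleted library at 42.4 CPM, and Ccl5 in the libraries labelled reexpressed, at 92.9 CPM in total Treg and 87.6 CPM in aTreg cells.

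Among the inflammatory CC ligands, Ccl5 (RANTES) was the most abundant per length in the WT and mosaic libraries. It had 29.5 CPM in the WT library, 43.6 in mosaic Brg1-sufficient, 20.8 in mosaic Brg1-deleted, 20.2 in untreated rKO1, 18.3 in TAM-treated deleted and 92.9 in TAM-treated reexpressed cells. Each Brg1-positive library was above each of the Brg1-deleted ones, and the 3 Brg1-deleted libraries did not differ from each other, taken in order, beyond counting error. Ccl5 was 2.09-fold higher in Brg1-sufficient than in Brg1-deleted mosaic cells (95% interval 1.88–2.34) and 5.09-fold higher in reexpressed than in deleted rKO1 cells (4.52–5.74). Scaled by total reads alone, the mosaic difference was 1.91-fold and no longer reached 2-fold.

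Ccl4 (MIP-1β) had 16.3 CPM in the WT library, 7.59 in mosaic Brg1-sufficient, 0.822 in mosaic Brg1-deleted, 42.9 in untreated rKO1, 22.0 in TAM-treated deleted and 54.1 in TAM-treated reexpressed cells. The 3 rKO1 libraries were above the 3 others, and the mosaic Brg1-deleted library, with 20 reads, was the lowest. Ccl4 was 9.23-fold higher in the Brg1-sufficient mosaic library (5.78–15.5) and 2.46-fold higher in the reexpressed rKO1 library (2.19–2.78). Scaled by total reads alone, the rKO1 difference was 1.93-fold. The untreated rKO1 library, although Brg1-deleted, held 5.66-fold more Ccl4 than the mosaic Brg1-sufficient one (4.77–6.74).

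Ccl3 (MIP-1α), the neighbour of Ccl4, had 3.43 CPM in the WT library, 0.754 in mosaic Brg1-sufficient, no read in mosaic Brg1-deleted, 9.40 in untreated rKO1, 10.1 in TAM-treated deleted and 12.5 in TAM-treated reexpressed cells. The 3 rKO1 libraries again lay above the others. In mosaic cells the 16 reads of the Brg1-sufficient library against none set Ccl3 at least 6.12-fold higher, taking a floor of 3 reads, but both libraries were under 5 CPM. Between the TAM-treated libraries it differed 1.23-fold (1.01–1.51), and with total reads alone the sign turned, from a log2 fold of 0.30 to -0.05.

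Ccl1, the ligand of CCR8, was 516-fold higher in its highest total Treg library than in its lowest (142–4269). It had 0.783 CPM in the WT library (13 reads), 9.75 in mosaic Brg1-sufficient (207 reads), 0.0822 in mosaic Brg1-deleted (2 reads), 2.14 in untreated rKO1 (41 reads), 42.4 in TAM-treated deleted (778 reads) and 1.49 in TAM-treated reexpressed cells (25 reads). One library from TAM-treated mice and 1 from mosaic mice thus held most of the Ccl1 reads, and the other 4 were at 2.14 CPM or less. Ccl1 was 119-fold higher in Brg1-sufficient than in Brg1-deleted mosaic cells (32.4–987) and 28.5-fold lower in reexpressed than in deleted rKO1 cells (19.1–44.3). The 2 Brg1-deleted rKO1 libraries differed from each other 19.8-fold (14.5–27.8), higher after TAM. An NK cell marker, Ncr1 (NKp46), picked out after its values were seen, was high in the same 2 libraries, with 7, 104, 1, 7, 122 and 0 reads in the order above. Eomes, of the same marker list, was instead highest in untreated rKO1 cells, with 17, 71, 55, 136, 71 and 3 reads. The part of NK cells in the Ccl1 difference was not tested.

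Xcl1 (lymphotactin) ran the other way from Ccl5 in rKO1 cells. It had 4.15 CPM in the WT library, 6.60 in mosaic Brg1-sufficient, 9.49 in mosaic Brg1-deleted, 13.2 in untreated rKO1, 12.3 in TAM-treated deleted and 3.40 in TAM-treated reexpressed cells. The 3 Brg1-deleted libraries lay above the 3 others. Xcl1 was 3.61-fold lower in reexpressed than in deleted rKO1 cells (2.69–4.92). In mosaic cells it was 1.44-fold lower with Brg1 (1.16–1.79), which exceeds counting error and does not reach 2-fold.

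Among the total Treg libraries, the CXCR3 ligands were highest in the 2 Brg1-deleted rKO1 ones. Cxcl10 (IP-10) had 44.7 CPM in the WT library, 35.2 in mosaic Brg1-sufficient, 14.4 in mosaic Brg1-deleted, 102 in untreated rKO1, 95.7 in TAM-treated deleted and 42.8 in TAM-treated reexpressed cells. The reexpressed library was thus at the level of the WT library (WT 1.04-fold higher, 0.941–1.16). Cxcl10 was 2.44-fold higher in Brg1-sufficient than in Brg1-deleted mosaic cells (2.15–2.78) and 2.23-fold lower in reexpressed than in deleted rKO1 cells (2.05–2.44).

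Cxcl9 (MIG) had 2.71 CPM in the WT library, 1.93 in mosaic Brg1-sufficient, 1.68 in mosaic Brg1-deleted, 14.6 in untreated rKO1, 9.16 in TAM-treated deleted and 3.75 in TAM-treated reexpressed cells. The WT and mosaic libraries did not differ from their neighbours in order beyond counting error. Cxcl9 was 2.44-fold lower in reexpressed than in deleted rKO1 cells (1.82–3.31). In mosaic cells, both libraries had 41 reads, and the scaled levels differed 1.15-fold (0.725–1.81).

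Set side by side, the 2 Brg1 comparisons divided the ligands in 3 groups. In the mosaic comparison, Brg1 cannot be told apart from the sorting gate. Ccl4 and Ccl5 were at least 2-fold higher with Brg1 in both. Ccl1 and Cxcl10 were at least 2-fold higher with Brg1 in mosaic cells and at least 2-fold lower with Brg1 in rKO1 cells. Ccl3, Xcl1 and Cxcl9 did not pass 2-fold with 5 CPM in both. The member nearest the limit on the inside was Ccl5 (2.09-fold in mosaic cells), and on the outside Xcl1 (1.44-fold in mosaic cells). With total reads alone, 0 ligands rather than 2 followed Brg1 in both, whereas the opposite pair held. That scaling moved the median log2 fold of all genes from 0.03 to -0.10 in mosaic and from 0.06 to -0.30 in rKO1 cells.

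**Figure D2:**
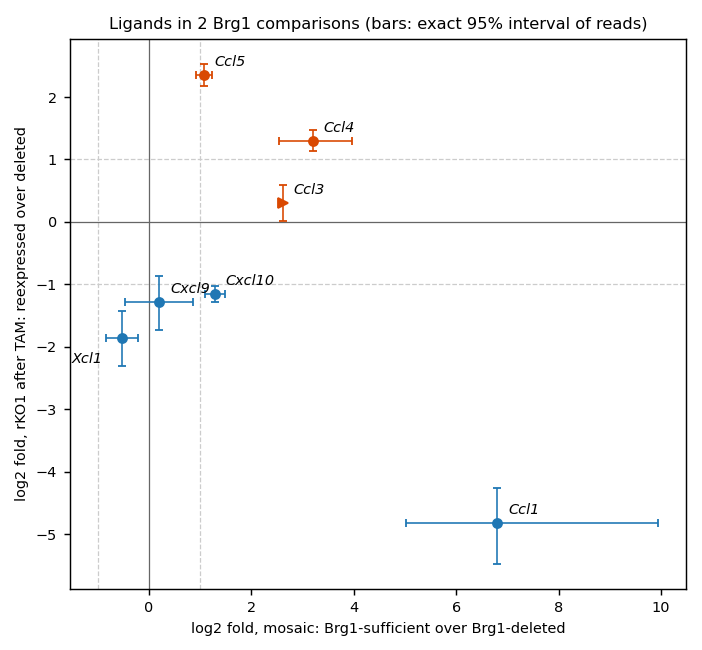
Log2 fold of each ligand between Brg1-sufficient and Brg1-deleted mosaic cells (x axis) against that between reexpressed and deleted rKO1 cells after TAM (y axis), with exact 95% intervals of the reads. Orange points were higher and blue points lower in reexpressed rKO1 cells, dashed lines mark 2-fold, and the triangle for Ccl3 marks a lower bound in mosaic cells. Ccl4 and Ccl5 lie past 2-fold with Brg1 on both axes, and Ccl1 and Cxcl10 lie past 2-fold in opposite directions. The Ccl3 value on the y axis turns from 0.30 to -0.05 with total reads.

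In mosaic cells, 4 of the 5 ligands with 5 CPM in either library were called, where 6.13% of the 10073 genes were. All 4 were higher with Brg1 (4.05% of genes) and 0 lower (2.07%). Ccl3 and Cxcl9 were below 5 CPM. In rKO1 cells after TAM, all 7 ligands reached 5 CPM, with 6 called (12.8% of 10323 genes), 2 of them higher (7.07%) and 4 lower (5.69%). These contrasts chose the ligands, so nothing is read from the counts. Of all called genes 66.1% were higher with Brg1 in mosaic cells (49.8% with total reads) and 55.4% in rKO1 cells (22.8% with total reads).

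Several other transcripts differed between the 2 TAM-treated rKO1 libraries along with Ccl1. Of 16 other cytokines of activated T cells, 12 reached 5 CPM, of which 1 was called higher and 6 lower in the reexpressed library (median log2 fold -1.12 against 0.06 over all genes). The shares of all genes were 7.07% higher and 5.69% lower. Lta (lymphotoxin α) had 186 CPM in the deleted and 44.0 in the reexpressed library, Il4 had 45.4 and 12.4, Tnfsf11 (RANKL) 25.6 and 7.21, and Ebi3, a subunit of IL-35, 32.5 and 67.3. Il5, at 7.96 against 0.0596 CPM, and Il21, at 7.69 against 0.179 CPM, were picked out after their values were seen. Both were below 1 CPM in the untreated rKO1 library, where Ccl1 was at 2.14 CPM. In mosaic cells, 3 of 6 such cytokines were called higher with Brg1 and 0 lower, namely Ebi3 (26.6 against 1.36 CPM), Il10 (12.6 against 1.81 CPM) and Csf1 (10.6 against 0.657 CPM). The shares of all genes in mosaic cells were 4.05% higher and 2.07% lower.

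Response genes of NF-kappaB and the T cell receptor also differed between the TAM-treated libraries. Of 18 such genes, 0 were called higher and 6 lower in the reexpressed library (median log2 fold -0.82), among them Tnfaip3 (248 CPM in the deleted, 113 in the reexpressed library), Nr4a1 (222 and 70.5 CPM), Myc (115 and 54.8 CPM) and Nr4a3 (35.2 and 12.0 CPM). Between these libraries, 7.07% of all genes were called higher and 5.69% lower. In mosaic cells, 0 of the 16 at 5 CPM were called in either direction (median 0.21). Of mast cell and basophil markers, 8 were looked at, and their sum was 11.3 CPM in the TAM-treated deleted library and 1.62 to 9.21 CPM in the 5 others, with Ms4a2 (2 reads in WT), Mcpt4 and Cma1 at or near 0 in all 6. Among the rKO1 libraries, 4 of the 8 were highest where Ccl1 was, in the TAM-treated deleted one, whereas Gata2 was highest in the untreated one (17 reads against 2). Hdc, which makes histamine, was called, with 141 reads in the TAM-treated deleted, 27 in the reexpressed and 6 in the untreated rKO1 library (4.78-fold between the TAM-treated pair, 3.15–7.51), and Cpa3 had 39, 8 and 8 reads, Mcpt8 15, 3 and 0, and Fcer1a 10, 0 and 0. Cpa3 was higher in the WT and mosaic libraries, at 71 to 118 reads, where Hdc had 7 to 20. The part of these cells in the Ccl1 difference was not tested.

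Markers of other cells known to make these ligands were set beside them. The stated depletion of non-CD4 cells and the CD4+ CD25+ gate are meant to exclude such cells. Their RNA was nevertheless present, as none of the 11 monocyte and macrophage markers was at 0 in any library. The 9 CD8 T and NK cell markers summed to 13.5 to 36.2 CPM in the 6 total Treg libraries, with 2 to 4 of them at 0, at 36.2 against 23.0 CPM in Brg1-sufficient against Brg1-deleted mosaic cells and at 13.5 against 26.5 CPM in reexpressed against deleted rKO1 cells. The latter order is the reverse of that of Ccl4 and Ccl5. Cd8b1 was the largest part of these sums in both pairs, at 21.8 against 17.3 CPM in the mosaic pair and 11.2 against 8.78 CPM in the rKO1 pair, and NK cell markers differed more. Ncr1 was at 4.90 against 0.0411 CPM in the mosaic pair (104 reads against 1, 119-fold, 20.9–4756) and was called in the rKO1 pair, with 0 reads against 122, at least 37.2-fold lower with Brg1. Klrb1c (NK1.1) had 29 reads against 2 in the mosaic pair and 4 against 47 in the rKO1 pair. Both had the order of Ccl1 in the 2 pairs, while Klra1 and Klra7 had no read in any of the 6 libraries. In the mosaic and rKO1 pairs, the 6 gamma-delta T cell markers summed to 31.8 against 15.9 CPM and to 5.60 against 40.0 CPM. These sums had the order of Ccl1, and so did Tcrg-C1, at 16.4 against 6.08 CPM and 0.953 against 26.2 CPM. Trdc had the reverse order in both pairs, at 4.05 against 5.63 CPM and 3.51 against 2.18 CPM. The 6 markers together were highest in the WT library, at 73.5 CPM, where Ccl1 had 0.783 CPM. The 9 dendritic cell markers summed to 13.9 against 10.6 CPM and to 8.82 against 23.4 CPM. Batf3 was the largest part of the sum in the deleted rKO1 library, at 14.8 CPM. In the rKO1 pair it had 42 reads against 271, and Zbtb46 had 49 against 105. Flt3, Clec9a, Cd209a and Clec10a had 0 to 3 reads in both libraries of that pair. Xcr1 had the reverse order there, at 3.22 against 1.85 CPM. The part of these other cells in the ligand differences was not tested.

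For the interferon-induced ligands, genes of the interferon γ axis were set beside them. Of 17 such genes, 15 reached 5 CPM in each Brg1 comparison. In rKO1 cells 0 were called higher and 1, Ifngr2 (a chain of the interferon γ receptor), lower with Brg1, at 22.3 against 49.3 CPM (median log2 fold 0.18). In mosaic cells 1 was called, Tbx21, the T-bet gene, at 8.53 against 1.81 CPM (median -0.06). Macrophage RNA differed with the CXCR3 ligands. The 11 monocyte and macrophage markers summed to 255 CPM in the deleted and 134 CPM in the reexpressed rKO1 library, and their part in the Cxcl9 and Cxcl10 differences was not tested. In the mosaic pair, where Cxcl10 differed 2.44-fold, the sums were 150.2 CPM in Brg1-sufficient and 156 CPM in Brg1-deleted cells. Lyz2 alone made 113 and 124 CPM of them. The other markers went either way, such as C1qc at 12.6 and 9.57 CPM and Cd68 at 4.15 and 4.97 CPM.

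In aTreg cells, all 7 ligands had the higher level in the library labelled Brg1-reexpressed. Cxcl9 had 2.77 CPM in the library labelled deleted and 23.9 in the one labelled reexpressed, 8.62-fold higher (6.41–11.8). Ccl4 had 7.86 and 39.7 CPM, 5.05-fold higher (4.21–6.09). Ccl3 had 1.64 and 7.82 CPM, 4.77-fold higher (3.19–7.36).

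The rest of the aTreg ligands spread over a smaller range. Ccl5 had 19.6 and 87.6 CPM, 4.48-fold higher (3.99–5.04). Ccl1 had 0.565 and 2.18 CPM, 3.86-fold higher (1.91–8.63), but was below 5 CPM in both. Xcl1 had 4.01 and 11.4 CPM, 2.84-fold higher (2.16–3.76).

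Cxcl10 differed least in aTreg cells, at 38.5 and 55.8 CPM, 1.45-fold higher (1.31–1.59). Xcl1 and Cxcl9 were thus higher in the reexpressed-labelled aTreg library and lower in the reexpressed total Treg library of rKO1 mice. Of the 6 ligands with 5 CPM, 5 were called, against 6.44% of 10035 genes, and these were higher (4.4% of genes) with 0 lower (2.03%). Since the labels of this pair and its Smarca4 disagree, no direction with Brg1 is drawn from it. The pair also differed in its mix of sexes, from which the ligand differences cannot be told apart.

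The same aTreg library differed in RNA of other cells. The 6 erythroid markers summed to 22863 CPM, against 1174 CPM in the library labelled deleted, and the 11 macrophage markers to 1051 against 642 CPM. Of 27 other chemokine ligands, 10 reached 5 CPM and 6 were called higher and 0 lower, led by Pf4 (platelet factor 4) at 14.9 against 5.14 CPM, Cxcl16 at 8.89 against 1.53 CPM, Ccl24 (eotaxin-2) at 7.87 against 0.565 CPM and Cxcl13, the B cell chemokine, at 5.23 against 1.70 CPM. In the aTreg pair, 4.4% of all genes were called higher and 2.03% lower. Among the macrophage genes, Adgre1, C1qc and Ms4a7 were 2.04- to 3.30-fold higher. Lyz2, at 628 against 418 CPM, and Csf1r, at 14.3 against 13.8 CPM, differed less. The part of these cells in the ligand differences was not tested.

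**Figure D3:**
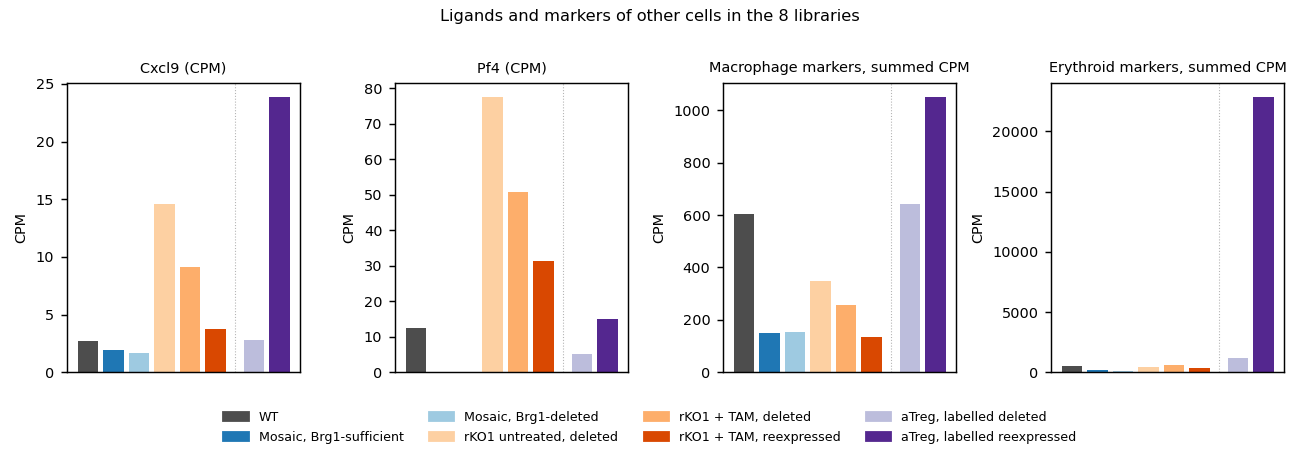
Cxcl9, Pf4, the summed 11 monocyte and macrophage markers and the summed 6 erythroid markers in the 8 libraries, in CPM (y axes start at 0), with the aTreg libraries right of the dotted line. Within the aTreg pair, the library labelled reexpressed is the higher in Cxcl9 (23.9 CPM) and in both sums. Among the total Treg libraries, Cxcl9 and Pf4 are highest in untreated rKO1 cells (14.6 and 77.6 CPM).

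Untreated rKO1 cells, which differ from WT in Brg1, in inflammation and in mouse sex, had more of most ligands. Against the WT library, Cxcl9 was 5.38-fold higher (3.91–7.54), Xcl1 3.18-fold (2.43–4.21), Ccl3 2.74-fold (2.02–3.76), Ccl4 2.64-fold (2.30–3.04) and Cxcl10 2.27-fold (2.09–2.48). Ccl5 was 1.46-fold lower (1.28–1.67), and Ccl1, at 2.73-fold higher (1.44–5.56), was under 5 CPM. Of the 6 ligands at 5 CPM, 5 were called (15.7% of 10471 genes), all higher (8.6%) and 0 lower (7.1%). Of all called genes 54.8% were higher, and 78.0% with total reads.

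The same untreated library was also set against the mosaic ones. Against Brg1-sufficient cells, all 7 ligands were called (17.3% of 10457 genes), 5 higher (8.2%) and 2, Ccl1 and Ccl5, lower (9.12%). Ccl3 was 12.5-fold higher (7.47–22.3) and Cxcl9 7.54-fold (5.42–10.7), whereas Ccl1 was 4.56-fold lower (3.25–6.54) and Ccl5 2.16-fold lower (1.92–2.44). Ccl5 with total reads was 1.70-fold lower and so under the limit. Xcl1 sat at the limit with 2.002-fold (1.62–2.48), and 1.99-fold with a prior of 2 reads.

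Against the Brg1-deleted mosaic library, whose cells lack Brg1 as well, 4 of 6 ligands were called (15.1% of 10416 genes), all higher (8.17%) and 0 lower (6.98%). Ccl4 was 52.2-fold higher (33.6–85.9), Ccl3 at least 76.2-fold, Cxcl9 8.65-fold (6.21–12.3) and Cxcl10 7.05-fold (6.29–7.92). Ccl5 differed 1.03-fold (0.902–1.18), a difference whose sign turned with total reads or with deposited FPKM. The 3 comparisons share the untreated library, so they are not independent of each other. Of all called genes, 47.3% were higher against Brg1-sufficient cells (78.1% with total reads) and 53.9% against Brg1-deleted cells (72.8% with total reads).

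**Figure D4:**
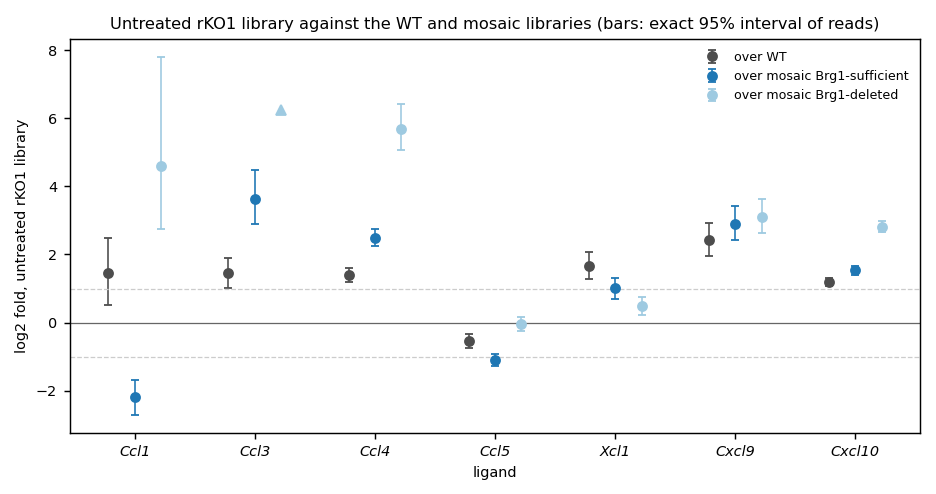
Log2 fold of each ligand in the untreated rKO1 library over the WT, mosaic Brg1-sufficient and mosaic Brg1-deleted libraries, with exact 95% intervals of the reads (y axis on a log2 scale). Dashed lines mark 2-fold, and the triangle is the lower bound of Ccl3. Cxcl9, Cxcl10, Ccl3 and Ccl4 are above 2-fold against all 3, and the Ccl5 point over mosaic Brg1-deleted cells lies at the 0 line, on either side of it by scaling.

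Macrophage RNA in the untreated rKO1 library was above that in the mosaic libraries and, summed, below that in the WT library. The 11 markers, none of which was at 0 in any library, summed to 348 CPM in untreated rKO1 cells, 605 in WT cells, 150.2 in Brg1-sufficient and 156 in Brg1-deleted mosaic cells. Lyz2 was at 67.7, 376, 113 and 124 CPM in the same order and made much of the WT and mosaic sums. Of these libraries it was thus lowest in untreated rKO1 cells, as was Itgam with 2, 5, 6 and 4 reads. In contrast, C1qb was highest there, at 93.0, 78.6, 9.28 and 8.38 CPM. Of the other ligands, 4 of 8 at 5 CPM were called higher and 1 lower in untreated rKO1 over WT cells, led by Pf4 at 77.6 against 12.5 CPM, Ccl8 at 54.4 against 1.69 CPM, Ccl24 at 38.2 against 0.542 CPM and Ccl6 at 22.6 against 9.51 CPM. Their part in the ligand differences was not tested.

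Between the rKO1 libraries that were both Brg1-deleted, 1 of 7 ligands was called after TAM, Ccl1 (4.42% of 10303 genes). It was higher (2.15% of genes), with 0 lower (2.26%). Cxcl10, Ccl3, Ccl5 and Xcl1 differed by 1.06- to 1.11-fold, with intervals that held equality. Cxcl9 was 1.59-fold lower (1.31–1.94) and Ccl4 1.95-fold lower (1.73–2.21) after TAM, the latter 2.07-fold with total reads. Of all called genes 48.8% were higher, and 35.1% with total reads.

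The reexpressed rKO1 library was also set beside the mosaic Brg1-sufficient one, as both contain Brg1-positive cells, from inflamed and from mosaic mice. Ccl3 was 16.6-fold higher (9.98–29.6), Ccl4 7.14-fold (6.03–8.49) and Ccl5 2.13-fold (1.96–2.31) in the reexpressed library, 3 of 6 ligands (10.8% of 10333 genes). Ccl1 was 6.55-fold lower (4.31–10.4), the 1 ligand called lower (10.9%), so that 4 were called in either direction (21.7% of genes). Cxcl10 differed 1.22-fold (1.10–1.35). Xcl1, 1.94-fold lower (1.42–2.69), came to 2.06-fold with total reads.

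Of the 2 libraries with Brg1 from mice without the rKO1 genotype, the mosaic Brg1-sufficient one had 12.5-fold more Ccl1 than the WT one (7.13–23.8) and 2.14-fold less Ccl4 (1.76–2.62), 1 of 5 ligands higher (5.16% of 10130 genes) and 1 lower (4.21%), or 2 in either direction (9.37%). Ccl5 was 1.48-fold higher (1.32–1.65), Xcl1 1.59-fold higher (1.18–2.15) and Cxcl10 1.27-fold lower (1.15–1.41). Differences of this size thus occurred between libraries that both had Brg1. The WT library had 347 CPM of Fos and 3487 CPM of Junb, immediate early genes, against 17.3 and 393 CPM in the mosaic one. Of all called genes 55.1% were higher, and 42.6% on the deposited FPKM.

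Per length, Ccl5 led the ligands in 6 of the 8 libraries. On the FPKM scale, it had 33.6 in WT, 46.3 and 22.2 in the mosaic and 103 in the reexpressed rKO1 libraries. In untreated rKO1 cells Ccl4 led with 70.3 FPKM and Ccl5 had 22.8, and in TAM-treated deleted cells Cxcl10 led with 46.8 and Ccl1 had 19.7. In the aTreg libraries Ccl5 led with 20.6 and 89.7 FPKM. Ccl1 is divided by a model of which most bases are in the long transcript alone, so its FPKM is a low value if the reads came from the short transcripts.

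The analysed receptors of these ligands that reached 5 CPM were higher with Brg1 in both total Treg comparisons. Cxcr3, the receptor of CXCL9 and CXCL10, had 53.5 CPM in WT, 75.8 in mosaic Brg1-sufficient, 4.07 in mosaic Brg1-deleted, 153 in untreated rKO1, 99.9 in TAM-treated deleted and 526 in TAM-treated reexpressed cells. It was 18.6-fold higher with Brg1 in mosaic cells (15.2–23.1) and 5.26-fold in rKO1 cells (5.004–5.54). Cxcr3 was thus highest in the rKO1 library where its ligands were lower.

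Ccr8, the receptor of CCL1, had 40.2, 92.2, 45.7, 80.3, 65.6 and 168 CPM in the same order. It was 2.02-fold higher with Brg1 in mosaic cells (1.88–2.18) and 2.55-fold in rKO1 cells (2.39–2.73), whereas its ligand Ccl1 went opposite ways.

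The other receptors were less abundant. Ccr3 had 7.22, 5.61, 0.288, 1.10, 2.56 and 8.28 CPM, and was 19.5-fold (9.17–49.5) and 3.23-fold (2.31–4.60) higher with Brg1. Ccr1 had 0.722, 1.13, 0.164, 0.887, 3.87 and 8.64 CPM, and was 2.23-fold higher (1.67–3.01) in reexpressed rKO1 cells. Xcr1, the dendritic cell receptor of XCL1, was under 5 CPM throughout, from 0.534 to 3.22 CPM.

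Of these 5 receptors, 3 of 3 at 5 CPM were called higher with Brg1 in mosaic cells (median log2 fold 4.22, against 0.03 over all genes) and 4 of 4 in rKO1 cells (1.52, against 0.06). The shares of all genes called higher were 4.05% in mosaic and 7.07% in rKO1 cells. The study had named Ccr1, Ccr3, Ccr8 and Cxcr3 among Brg1 target genes from these same libraries, so nothing is read from the counts. In the aTreg pair, 0 of 3 were called (median 0.76, against -0.06). Ccr8 was there at 137 CPM in the library labelled reexpressed against 75.7 in the one labelled deleted, Cxcr3 at 241 against 193, Ccr3 at 9.19 against 5.43, Xcr1 at 3.56 against 1.47 and Ccr1 at 2.13 against 0.226 CPM.

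**Figure D5:**
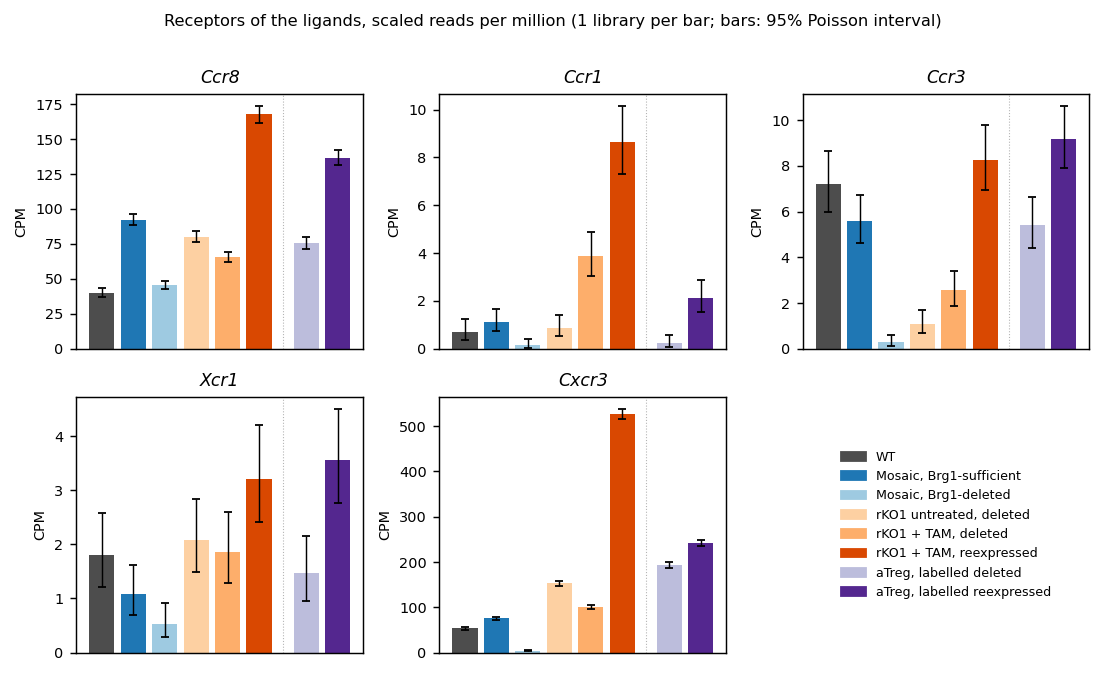
Scaled CPM (y axis, starting at 0) of 5 receptors of the ligands in the 8 libraries, 1 bar per library, with 95% Poisson intervals of the reads. Among the total Treg libraries, Cxcr3 and Ccr8 are highest in the reexpressed rKO1 library, at 526 and 168 CPM.

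Of the 27 other chemokine ligands, 3 reached 5 CPM in mosaic cells and 0 were called, where 6.13% of all genes were (median log2 fold 0.25, against 0.03 over all genes). So few cannot be told from that share. In rKO1 cells 7 reached 5 CPM, with 0 called higher and 3 lower with Brg1, where 5.69% of all genes were lower (median -0.84, against 0.06): Ccl8, at 7.92 against 17.6 CPM, Ccl6, at 5.30 against 17.4 CPM, and Cxcl2, at 1.49 against 5.51 CPM. Ccl6 and Ccl8 are known as macrophage products, and the macrophage sums given above differ between the same libraries.

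Across the 6 total Treg libraries, the genes whose log2 levels were most like each ligand were found among 2993 genes by Pearson r, as a description of 6 points that share scaling. Bcl2a1b was most like Ccl3 (r = 0.99), Tmbim1 most like Ccl4 (0.99), Gm2a most like Ccl5 (0.98), Tagap most like Xcl1 (0.99), Nr1d2 most like Cxcl9 (0.98) and Fcer1g most like Cxcl10 (0.98). Ccl1 had the weakest match, Kif3a at 0.86, with Ifitm1 at 0.82 and Rgmb at 0.78. Next came Evi2a and Plscr1 for Ccl3, Lamtor4 and Serpina3g for Ccl4, Capg and Gm12751 for Ccl5, Cd160 and Trim24 for Xcl1, Blvrb and Il18 for Cxcl9 and Cirbp and Arrdc4 for Cxcl10. Among the ligands themselves, r was 0.95 for Ccl3 and Ccl4, 0.90 for Cxcl9 and Cxcl10, 0.36 for Ccl4 and Ccl5 and -0.83 for Ccl5 and Xcl1.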

How the data were processed

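The authors deposited FPKM for each Ensembl gene in 8 libraries made with SMART-Seq v4 and read as paired ends. The submitters' processing notes name HISAT2 2.0, featureCounts 1.5.0-p3, StringTie 1.3.3b and mm10. FPKM was turned back into reads with merged exon lengths of GENCODE M21 and each library's step, where values within 0.02 of a whole read counted as whole. The totals implied by the deposited values were 0.815 to 1.08 times these reads in the total Treg experiment and 1.00 times in the aTreg experiment. A gene not whole was kept as a rounded estimate. Reads were scaled by TMM over the libraries of each experiment (trims of 30% and 5%), with a prior of 0.125 reads in log2 folds, using Python 3.11.15, NumPy 2.4.6, SciPy 1.17.1 and pandas 2.3.3. Exact 95% binomial intervals cover counting error, and the floor was 3 reads. In all, 9 comparisons of 2 libraries were made, with no test. Members and lists were chosen with earlier results of these data known. Named beyond the ligands and their receptors were, per list, up to 4 genes of highest mean CPM called in a comparison, checks of the labels, and any gene said to be chosen after its values were seen. Genes compared for likeness had 20 CPM in a library and a 2-fold span. Ccl19, Ccl21a and Scart1 were left out, for lack of a single identifier. Some genes of the lists are not reported here. The method was tested on simulated data.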

Additional observations from a re-analysis of the deposited data

Results flagged for a closer look

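The ligands Ccl1, Cxcl10, Xcl1 and Cxcl9 had log2 folds of opposite sign, each past 2-fold, in 2 settings whose labels name the same Brg1 contrast, and the difference between settings was not tested because each condition had 1 library. Ccl1 was at 6.80 in mosaic cells (Brg1-sufficient over Brg1-deleted) and -4.83 in rKO1 cells after TAM (reexpressed over deleted). Cxcl10 was at 1.29 in mosaic and -1.16 in rKO1 cells. Xcl1 was at -1.85 in rKO1 cells and 1.502 in the aTreg pair, and Cxcl9 at -1.29 in rKO1 cells and 3.10 in the aTreg pair. Smarca4 went against the labels of that pair. If those labels were exchanged, Xcl1 and Cxcl9 would have the same sign in both settings, so for these 2 no opposite direction with Brg1 is drawn. An exchange would also turn Ccl4 and Ccl5, which were 5.05- and 4.48-fold higher in the library labelled reexpressed. Their sign would then be opposite to that in rKO1 cells.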

How the results depend on the processing

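Of 308 ligand values under 5 alternatives that could move them (total reads, median of ratios, TMM over 2 libraries except for the aTreg pair, deposited FPKM with a pseudocount of 0.1, a prior of 2 reads), 294 moved by less than their counting interval, 14 moved further and 0 called values changed sign. With total reads, the number of ligands following Brg1 in both settings fell from 2 to 0, and those called between the Brg1-deleted rKO1 libraries rose from 1 to 2. A limit of 1.5-fold left 2 ligands following and 2 opposite. The Ccl1 fold in mosaic cells was 4.99 (log2) on deposited FPKM. With filters of 1 CPM and none, all genes past 2-fold numbered 1564 and 7902 in mosaic cells (617 at 5 CPM), 2711 and 8924 in rKO1 cells after TAM (1317), 1735 and 7632 in aTreg cells (646), 3267 and 9609 for untreated rKO1 over WT (1643), 3500 and 10015 over mosaic Brg1-sufficient (1811), 3070 and 9665 over mosaic Brg1-deleted (1578), 1533 and 7471 between the Brg1-deleted rKO1 libraries (455), 3712 and 10163 for reexpressed over mosaic Brg1-sufficient (2246), and 2068 and 8304 for mosaic Brg1-sufficient over WT (949). No paired analysis was possible because each condition had 1 library, and for the same reason no library could be left out of a group. Depth limited Ccl1, Ccl3 and Cxcl9 most, with 0 to 57 reads in the mosaic and WT libraries except Ccl1 in Brg1-sufficient cells.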

Other observations

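Beyond the receptors of these ligands, 16 other chemokine receptors were counted, of which 8 reached 5 CPM in each total Treg comparison. In mosaic cells 6 were called higher and 0 lower with Brg1 (median log2 fold 2.63, against 0.03 over all genes). The shares of all genes were 4.05% higher and 2.07% lower. Ccr6 was at 103 against 37.8 CPM, Ccr4 at 70.2 against 12.4, Ccr2 at 56.1 against 1.73 and Cxcr6 at 43.1 against 6.37. In rKO1 cells after TAM, 3 were called higher and 1 lower (median 0.12, against 0.06), where 7.07% of all genes were higher and 5.69% lower. Ccr2, the inflammatory monocyte chemokine receptor that effector T cells also carry, had 228 against 29.2 CPM, Ccr10 52.9 against 7.85 and Ccr4 49.2 against 16.0, while Ccr7, which guides naive cells to lymph nodes, had 69.9 against 356 CPM. In the aTreg pair, 2 of 9 were called higher in the library labelled reexpressed and 0 lower, Cxcr6 at 260 against 63.1 and Ccr2 at 93.7 against 24.6 CPM. The shares of all genes there were 4.4% higher and 2.03% lower. Since the study had named Ccr2, Ccr7 and Ccr10 among Brg1 target genes from its libraries, nothing is read from these counts.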
